A study of Mus musculus with 9 samples.

Results

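The ligands and receptors of the tumour necrosis factor (TNF) superfamily other than TNF, RANKL, osteoprotegerin and their receptors were followed in bulk RNA sequencing of mouse tibiae. Members were the genes whose symbol begins with Tnfsf or Tnfrsf and a number, without Tnfsf11, Tnfrsf11a, Tnfrsf11b, Tnfrsf1a and Tnfrsf1b, together with Cd40, Cd40lg, Fas, Fasl, Cd27, Cd70, Lta, Ltb and Ltbr. The symbol pattern gave 26 genes and the names gave 9, so that 35 of the 22183 genes in the deposited table were members, 15 of them ligands and 20 receptors. The rule used symbols alone and no measured value.

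The study compared 3 groups of 3 libraries each. Naive tibiae received no treatment. Ti tibiae received titanium particles, which stand for the wear debris that loosens an implant without infection. Ti+I-OG tibiae were given the particles together with I-OG, a natural polymer gel for injection that carries irisin, a hormone-like peptide of muscle, and the series' design text gives 5 weeks of treatment. The 5 weeks are recorded here for the Ti+I-OG libraries only, so whether the groups share the same time is not known. The sources used here give no strain, sex, age, particle dose or injection site. No group received the hydrogel without irisin or without particles, so the hydrogel, the irisin and their combination with particles cannot be told apart. Whether the 3 libraries of a group stem from different mice is not stated, and p-values therefore reflect only how these libraries scatter, which may be technical.

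TNF superfamily ligands are trimeric proteins, mostly held in the cell membrane and often shed from it, that cluster their receptors on neighbouring cells. The receptors have no enzyme activity of their own: most recruit TRAF adaptors and switch on the classical and alternative NF-kappa B pathways, and those with a death domain can start apoptosis. In bone and its marrow, members of the family are known for keeping B cells alive, for costimulating T cells, for shaping lymphoid tissue and for acting on osteoclast and stromal precursors.

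The libraries held 16256082 to 24766516 estimated counts, so that 3 counts, the limit that a count of 0 allows, stood for 0.114 to 0.206 CPM (counts scaled to library depth). CPM values below are normalised between libraries by the trimmed mean of M-values (TMM) and are used to compare a gene between libraries. FPKM (fragments per kilobase of transcript, scaled to depth) is used to compare genes with each other. Markers of the tissue were present in every group: the summed level of 9 osteoblast and bone markers was 1436 to 3522 CPM in naive, 6356 to 9021 CPM in Ti and 4069 to 6149 CPM in Ti+I-OG, and that of 9 neutrophil markers was 26314 to 47338 CPM over all libraries, so the libraries hold marrow as well as bone. Naive replicate 3 stood apart, with the lowest summed B lineage, osteoblast and fibroblast markers of all 9 libraries. In bulk tissue, fewer cells of a type and less RNA per cell cannot be told apart, and this holds for every member below.

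Lymphotoxin beta (Ltb), the membrane anchor of the lymphotoxin trimer, had the highest mean FPKM of the ligands, 30.2 over the 9 libraries. It was followed by Tnfsf14 (LIGHT, a ligand of activated leukocytes) at 14.6, Tnfsf13 (APRIL, a plasma cell survival factor) at 12.5 and Tnfsf12 (TWEAK) at 7.21. Ltb ranged from 21.7 to 38.5 FPKM and Tnfsf14 from 11.5 to 19.7 FPKM, so these neighbours in the order did not overlap in any library, whereas Tnfsf14 and Tnfsf13 (8.62 to 18.2 FPKM) did.

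Tnfrsf14 (HVEM, a receptor of LIGHT) led the receptors with a mean FPKM of 30.0. Next came the lymphotoxin beta receptor Ltbr at 20.5, the death domain receptor Tnfrsf21 at 19.2 and Tnfrsf13b (TACI, a receptor of BAFF and APRIL on B cells) at 16.4. The ranges of Ltbr (15.9 to 29.7 FPKM) and Tnfrsf21 (14.7 to 30.2 FPKM) overlapped almost wholly, and Tnfrsf14 (19.4 to 46.9 FPKM) overlapped with both. Enough counts to be tested were found for 20 of 20 receptors and 10 of 15 ligands. Being tested does not mean detection in every library: the receptor Tnfrsf25 had 2 counts in Ti replicate 3, 0.098 CPM, under the 0.147 CPM of 3 counts there.

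The 5 untested ligands were Cd40lg, Cd70, Lta, Tnfsf4 and Tnfsf18, which signal mainly from activated lymphocytes and antigen-presenting cells. Cd70 had no count in any of the 9 libraries, which allows up to 0.114 to 0.206 CPM in a library. Cd40lg, Lta, Tnfsf18 and Tnfsf4 had 35, 30, 30 and 27 counts in all 9 libraries together. Cd40, Cd27 and Tnfrsf18, the receptors of Cd40lg, Cd70 and Tnfsf18, were each at a mean of at least 3.66 FPKM, so that for these pairs the receptor transcript was measured and the ligand transcript was close to the limit of detection. Tnfrsf4, the receptor of Tnfsf4, was at 0.557 FPKM. Fasl, Tnfrsf22 and Tnfrsf9 had estimated transcript lengths that varied between libraries by 3.85, 3.30 and 1.57 times, which makes their FPKM less reliable than their CPM.

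**Figure D1:**
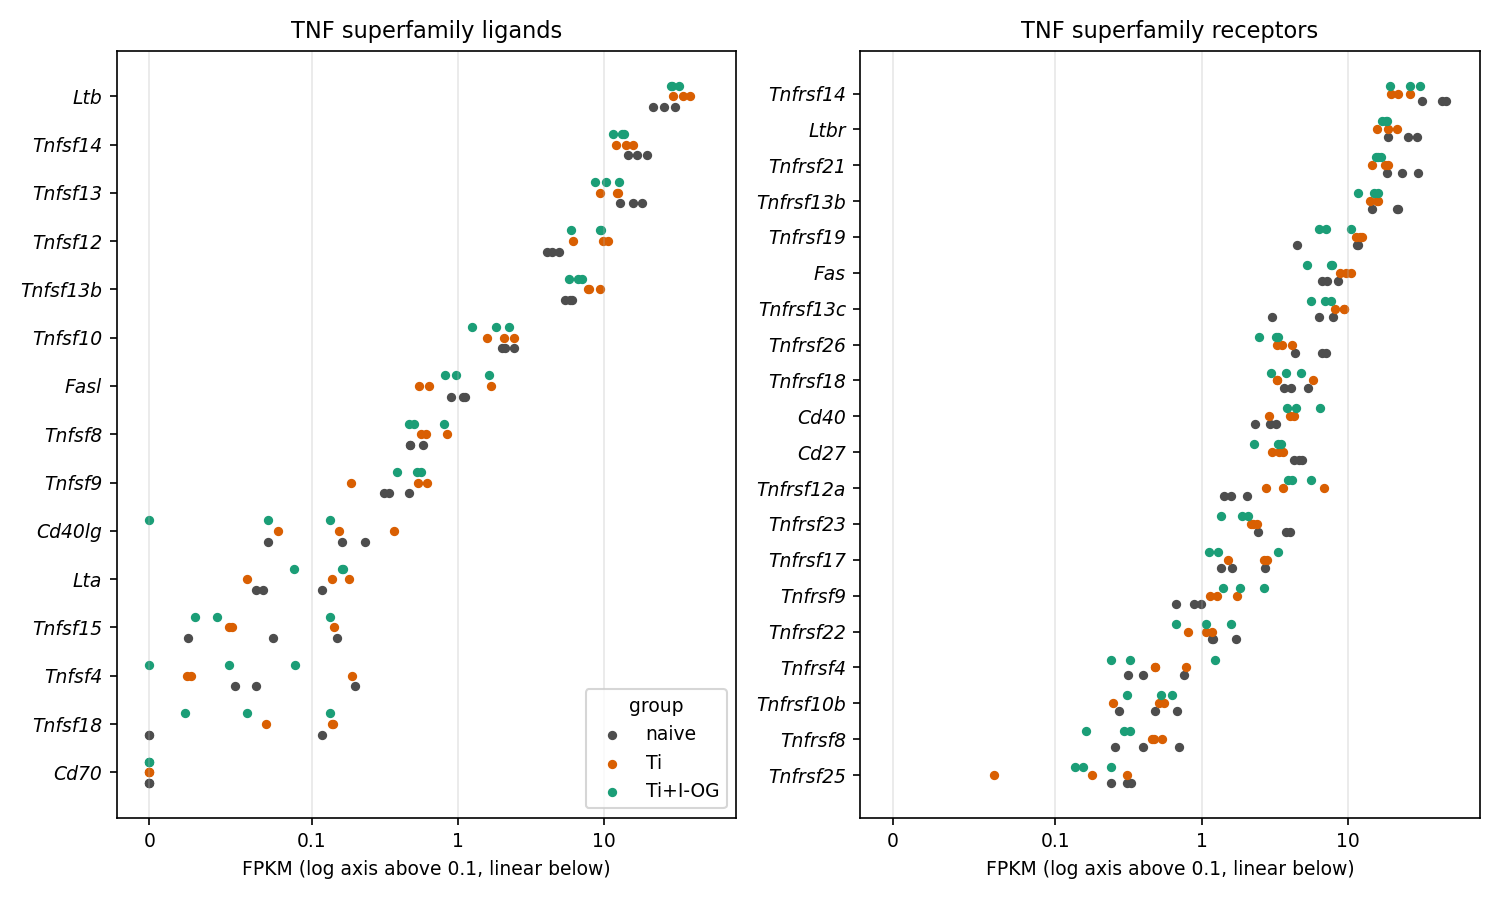
FPKM of the 35 members in each of the 9 libraries (naive grey, Ti orange, Ti+I-OG green), ligands on the left and receptors on the right, ordered by mean FPKM, on an axis that is logarithmic above 0.1 and linear below. Ltb (21.7 to 38.5) and Tnfrsf14 (19.4 to 46.9) lead, and Cd70 lies at 0 in all libraries.

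Genes were tested with edgeR's quasi-likelihood test in 1 fit of the 9 libraries, and a gene was called where its p, adjusted over 14211 tested genes by the Benjamini-Hochberg method, was under 0.05. Of the 30 tested members, 3 rose and 1 fell in Ti against naive, which is 13.3% of them beside 6.43% of all tested genes (4.05% higher and 2.39% lower). Against naive, 4 rose and 1 fell in Ti+I-OG, 16.7% beside 8.26% of all genes (3.84% higher and 4.43% lower). No member was called in Ti+I-OG against Ti, beside 0.0422% of all genes (6 genes). The fold changes of the tested members lay on both sides of 0: 15 were above it and 15 below in Ti against naive, with a median log2 fold change of 0.02 (0.01 over all genes), and 15 and 15 in Ti+I-OG against naive, with a median of -0.01 (0.03 over all genes). Libraries of Ti and naive did not overlap for 13 members (8 higher, 5 lower in Ti), beside 27.2% of all genes (14.3% higher, 12.9% lower). For Ti+I-OG and naive this count was also 13 (7 higher, 6 lower), beside 35.5% (18.7% higher, 16.9% lower). An unadjusted edgeR p under 0.05 was seen for 12 of the 30 members in each comparison with naive, beside 26.9% of all genes for Ti and 29.8% for Ti+I-OG. The comparisons with naive share the naive libraries, so they do not repeat each other independently.

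**Figure D2:**
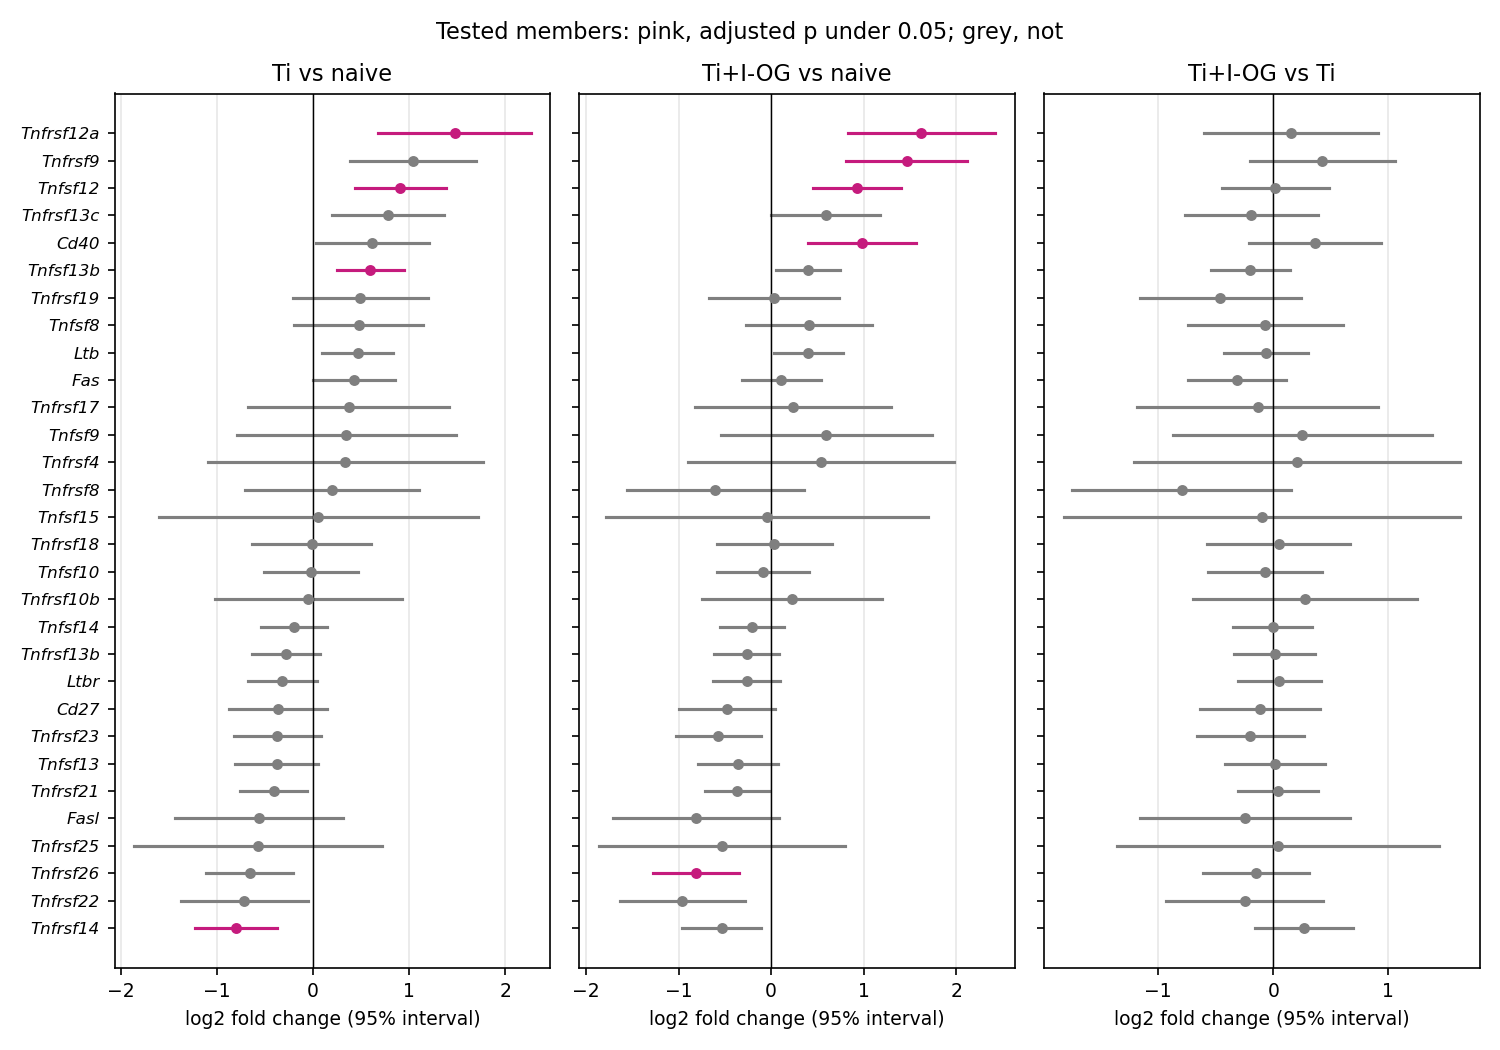
Log2 fold change with its 95% interval for the 30 tested members in the comparisons Ti vs naive, Ti+I-OG vs naive and Ti+I-OG vs Ti; pink marks an adjusted p under 0.05 and grey the rest. Tnfrsf12a leads both comparisons with naive (1.47 and 1.63), and no interval in Ti+I-OG vs Ti is pink.

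TWEAK (Tnfsf12) and its receptor Fn14 (Tnfrsf12a) were the only ligand and receptor pair of which both members were called, and both rose against naive with particles alone and with particles and I-OG. Tnfsf12 is made by monocytes and macrophages among other cells, and Tnfrsf12a is known as a receptor induced by injury on fibroblasts, muscle and other mesenchymal cells.

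Tnfsf12 stood at 5.50, 6.82 and 5.74 CPM in naive replicates 1 to 3, at 8.78, 14.2 and 10.9 CPM in Ti and at 9.32, 12.3 and 12.8 CPM in Ti+I-OG. Every library with particles was above every naive library, and the ranges of Ti and Ti+I-OG overlapped. Naive tibiae averaged 6.02 ± 0.700 CPM, Ti tibiae 11.3 ± 2.75 and Ti+I-OG tibiae 11.5 ± 1.88 (SD, n = 3). Against naive the log2 fold change was 0.91 in Ti (SE 0.216, edgeR adjusted p = 0.0334) and 0.93 in Ti+I-OG (SE 0.218, edgeR adjusted p = 0.0317).

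Tnfrsf12a stood at 1.90, 1.35 and 1.42 CPM in naive, at 3.54, 6.76 and 2.69 CPM in Ti and at 4.46, 6.18 and 3.91 CPM in Ti+I-OG. Again no library with particles reached down to naive, but Ti replicate 2 was far above the other Ti libraries. Against naive its log2 fold change was 1.47 in Ti (SE 0.362, edgeR adjusted p = 0.0365) and 1.63 in Ti+I-OG (SE 0.365, edgeR adjusted p = 0.0288), which are 2.77-fold and 3.08-fold. Of the members called anywhere, this receptor had the fold change farthest from 0 in each comparison with naive.

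**Figure D3:**
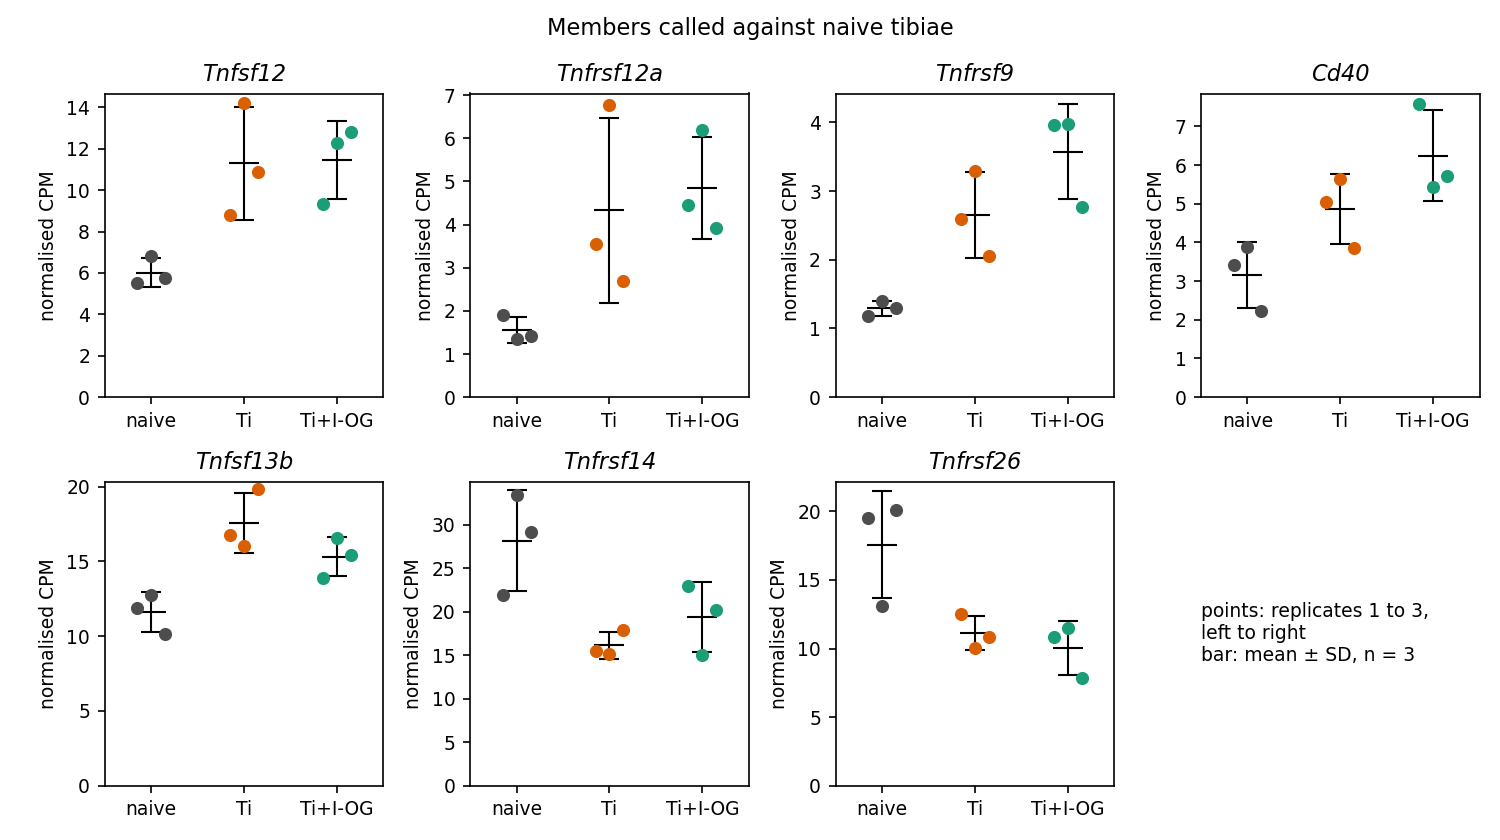
TMM-normalised CPM of the 7 members called in a comparison with naive; points are replicates 1 to 3 from left to right, and the bar is the mean ± SD (n = 3). Tnfsf12, Tnfrsf12a and Tnfrsf9 lie higher in every library with particles than in every naive library, and Tnfrsf26 lies lower.

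Fibroblast and tendon markers rose against naive, as Tnfrsf12a did. Of 8 such genes, 6 rose in Ti and 4 in Ti+I-OG against naive, beside 4.05% and 3.84% of all tested genes. The marker lists were chosen with earlier results of these data known, so such counts are no independent check. None of the 8 genes was at 0 in all libraries. Their summed level was 499, 467 and 167 CPM in naive replicates 1 to 3, 1866, 2635 and 1110 CPM in Ti and 1328, 1643 and 821 CPM in Ti+I-OG. Within Ti and within Ti+I-OG the libraries stood in the same order for the markers as for Tnfrsf12a, and in naive they did not. The sums of plasma cell, skeletal muscle, endothelium and Schwann cell markers had that order in Ti too, but not in Ti+I-OG. Those of osteoclast and erythroid markers had it in Ti+I-OG, but not in Ti. An order of 3 libraries is easily shared, and whether it links any of these markers to Tnfrsf12a was not tested. In Ti+I-OG against Ti, 7 of the 8 markers had a log2 fold change below 0 (median -0.48), while that of Tnfrsf12a was 0.15. Other markers also rose against naive: 5 of 6 for osteoclasts in each comparison, and 7 of 9 for osteoblasts and bone in Ti and 2 in Ti+I-OG. Skeletal muscle markers were at 706 to 2056 CPM in naive, 1618 to 5758 CPM in Ti and 2488 to 4334 CPM in Ti+I-OG, and 1 of 6 rose in each comparison with naive. Macrophage markers, from cells that can make TWEAK, were at 527 to 592, 627 to 710 and 710 to 787 CPM, and 1 of 7 rose in each comparison with naive while 1 fell in Ti. With the replicate number as a block, 7 fibroblast and tendon, 4 skeletal muscle and 3 macrophage markers rose in Ti+I-OG against naive, beside 3450 of 14211 genes called in either direction. In Ti against naive these were 8, 4 and 2, beside 2968 genes, and 1 macrophage marker fell. The part of these cells in the changes of Tnfsf12 and Tnfrsf12a was not tested.

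**Figure D4:**
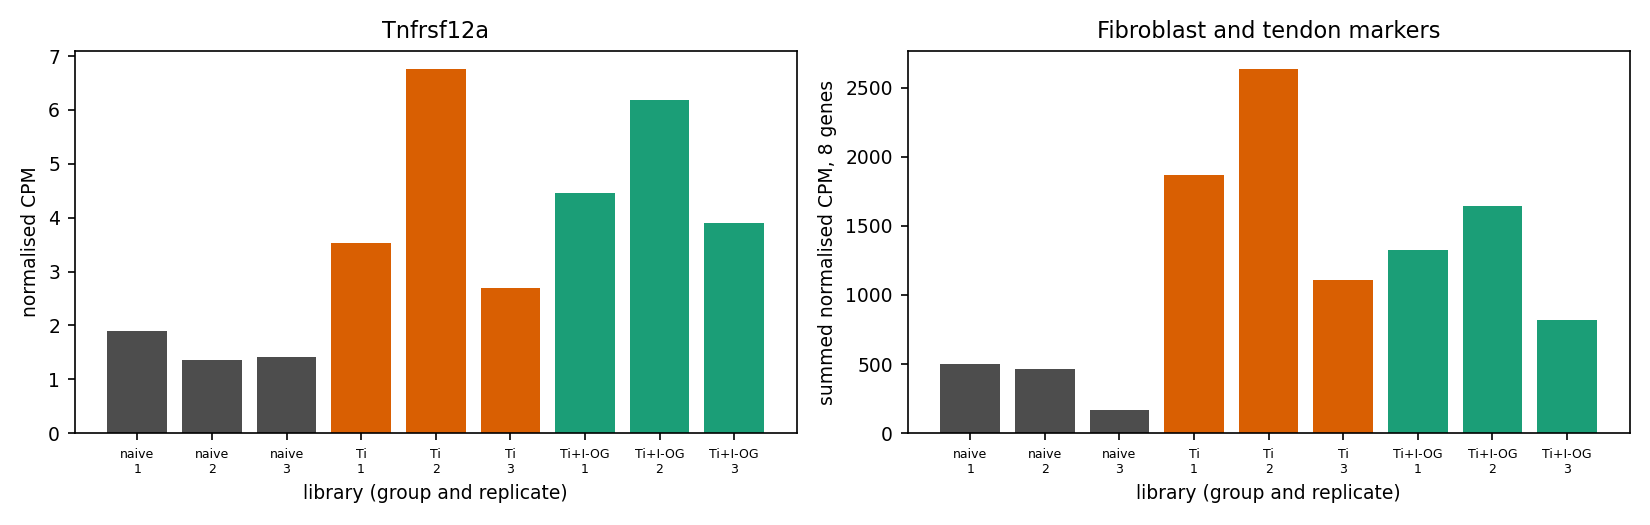
TMM-normalised CPM of Tnfrsf12a (left) and the summed CPM of 8 fibroblast and tendon markers (right), 1 bar per library, coloured by group. Replicate 2 is the highest of its group in Ti (6.76 and 2635 CPM) and in Ti+I-OG (6.18 and 1643 CPM) on both sides.

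The calls of the pair depended on which libraries entered the fit. In Ti against naive the adjusted p of Tnfsf12 was 0.0947, 0.112, 0.0672 and 0.164 without naive replicate 1, naive replicate 3, Ti replicate 1 or Ti replicate 2. That of Tnfrsf12a was 0.0656, 0.0597, 0.121, 0.0930 and 0.179 without naive replicates 1, 2 or 3 or Ti replicates 1 or 2, and without Ti replicate 2 its log2 fold change was 0.98. For Ti+I-OG against naive the adjusted p of Tnfsf12 was 0.0814, 0.107, 0.0587, 0.133 and 0.0729 without naive replicates 1 or 3 or Ti+I-OG replicates 1, 2 or 3. That of Tnfrsf12a was 0.0529, 0.0960, 0.0702 and 0.130 without naive replicates 1 or 3 or Ti+I-OG replicates 1 or 2. The direction stayed the same in each of these fits. With limma-trend on log2 FPKM, and with edgeR on the 2 compared groups alone, none of the 4 members called in Ti against naive passed.

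The counts of Tnfsf12 are uncertain in a further way, since the gene shares exons on the same strand with Tnfsfm13, a readthrough transcript that joins Tnfsf12 to the adjacent Tnfsf13. The deposited counts of Tnfsf12 and Tnfsf13 were fractional in all 9 libraries, which estimated counts can be where reads match more than 1 gene. Tnfsfm13 stood at 9.38 to 10.3 CPM in naive, 11.3 to 13.6 CPM in Ti and 8.33 to 13.1 CPM in Ti+I-OG. With the counts of Tnfsf12 and Tnfsfm13 summed, an alternative chosen after seeing the data, the log2 fold change against naive was 0.58 in Ti (edgeR adjusted p = 0.0318) and 0.53 in Ti+I-OG (edgeR adjusted p = 0.0403). With Tnfsf13 added as well it was 0.12 (edgeR adjusted p = 0.587) and 0.09 (edgeR adjusted p = 0.655). The call was therefore made for Tnfsf12 alone and for its sum with the readthrough transcript, which also shares exons with Tnfsf13. It was not made for the locus as a whole, which includes APRIL (mean FPKM 12.5 against 7.21 for Tnfsf12). Whether reads were divided differently between these genes in the groups was not tested.

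The start of Tnfrsf12a is shown because it had the largest fold change. RefSeq (GRCm38.p6) places the 231 exon-free bases upstream of it at chr17:23677469-23677699 on the minus strand, 19 bases before the listed start. Capitals mark the letters of an Sp1 box, GGGCGG on either strand, of which a search found 5, the last pair side by side.
Tnfrsf12a: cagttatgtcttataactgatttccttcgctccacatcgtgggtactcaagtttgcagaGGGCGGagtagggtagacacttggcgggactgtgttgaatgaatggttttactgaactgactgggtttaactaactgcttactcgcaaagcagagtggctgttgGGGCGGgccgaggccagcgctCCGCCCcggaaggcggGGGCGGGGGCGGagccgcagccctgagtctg

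Among the B cell survival factors, BAFF (Tnfsf13b) rose in Ti, and its receptors did not pass edgeR's test without a replicate block. BAFF is the main survival signal of maturing B cells, received through Tnfrsf13c (BAFF receptor), Tnfrsf13b and Tnfrsf17 (BCMA, of plasma cells). Of the 5 genes of this group, 1 rose in Ti against naive and none was called by edgeR in Ti+I-OG against naive, where 2 had an unadjusted edgeR p under 0.05 and DESeq2 and limma-trend called 0.

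Tnfsf13b stood at 11.9, 12.7 and 10.1 CPM in naive, 16.8, 16.0 and 19.8 CPM in Ti and 13.9, 16.5 and 15.5 CPM in Ti+I-OG. All libraries with particles were above all naive libraries, and Ti+I-OG lay between the other groups in its mean (15.3 ± 1.32 CPM against 17.6 ± 2.01 in Ti and 11.6 ± 1.33 in naive, SD, n = 3). Its log2 fold change was 0.60 in Ti against naive (SE 0.158, edgeR adjusted p = 0.0467), 0.40 in Ti+I-OG against naive (SE 0.159, adjusted p = 0.121) and -0.20 in Ti+I-OG against Ti (95% interval -0.54 to 0.15, edgeR adjusted p = 0.755). The Ti call lay near the threshold: its adjusted p was 0.104, 0.180, 0.121, 0.120 and 0.0674 without naive replicates 1 or 3 or Ti replicates 1, 2 or 3, and 0.0568 with no filter on low counts.

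The receptors of this group went different ways. Tnfrsf13c stood at 9.34, 10.7 and 4.61 CPM in naive, 14.9, 13.6 and 13.9 CPM in Ti and 12.3, 14.7 and 10.1 CPM in Ti+I-OG, with a log2 fold change of 0.78 in Ti (SE 0.267, edgeR adjusted p = 0.0971). With the replicate block it was called in Ti (log2 fold change 0.85, edgeR adjusted p = 0.0205) and not in Ti+I-OG (edgeR adjusted p = 0.0572). Naive replicate 3 was the lowest library, as it was for 10 B lineage markers, whose sum was 264, 398 and 139 CPM in naive, 400 to 451 CPM in Ti and 397 to 437 CPM in Ti+I-OG. None of the 10 markers was called by edgeR in either comparison with naive (5 had an unadjusted p under 0.05 in each, and DESeq2 called 0 in Ti and 1 in Ti+I-OG), and none was at 0 in all libraries. With the replicate block edgeR called 3 of the 10 higher in Ti and 4 in Ti+I-OG against naive, beside 2968 and 3450 of 14211 genes. Tnfrsf13b stood at 51.6, 35.7 and 49.4 CPM in naive, 35.2, 39.4 and 38.2 CPM in Ti and 44.1, 33.6 and 36.0 CPM in Ti+I-OG, so that its groups overlapped (log2 fold change -0.28 in Ti, SE 0.162, edgeR adjusted p = 0.291). Tnfrsf17 ranged from 1.01 to 2.97 CPM, and all its groups overlapped.

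APRIL (Tnfsf13) was at 20.9, 17.3 and 23.4 CPM in naive, 17.0, 13.2 and 17.3 CPM in Ti and 15.7, 20.0 and 12.4 CPM in Ti+I-OG. The Ti libraries lay just below naive and the Ti+I-OG libraries overlapped with naive. By edgeR the log2 fold change was -0.38 in Ti (SE 0.198, edgeR adjusted p = 0.243) and -0.36 in Ti+I-OG (SE 0.199, edgeR adjusted p = 0.243), and its counts carry the uncertainty of the shared locus.

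RefSeq lists more than 1 start for Tnfsf13b. The 250 bases before the outermost, at chr8:10006217-10006466 on the plus strand, are shown because it was the called ligand with a listed start, and they hold no Sp1 box and neither of the other motifs described below.
Tnfsf13b: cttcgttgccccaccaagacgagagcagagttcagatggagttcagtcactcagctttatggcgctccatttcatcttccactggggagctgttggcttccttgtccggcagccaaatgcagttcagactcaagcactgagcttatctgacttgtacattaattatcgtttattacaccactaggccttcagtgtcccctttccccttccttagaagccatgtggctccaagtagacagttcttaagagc

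Of the receptors that costimulate lymphocytes and antigen-presenting cells, Tnfrsf9 (CD137, of activated T and NK cells) and Cd40 (of B cells, macrophages and dendritic cells) rose in Ti+I-OG against naive. Neither was called by edgeR in Ti against naive without a replicate block. In the T cell costimulation group 1 of 9 tested genes rose in Ti+I-OG against naive and none was called by edgeR in Ti against naive, where 1 had an unadjusted p under 0.05, whereas DESeq2 called 1, Tnfrsf9, and limma-trend 0.

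Tnfrsf9 stood at 1.18, 1.40 and 1.298 CPM in naive, 2.60, 3.30 and 2.06 CPM in Ti and 3.97, 3.98 and 2.78 CPM in Ti+I-OG. The naive libraries were close together and below all others, and Ti and Ti+I-OG overlapped. Its log2 fold change was 1.47 in Ti+I-OG against naive (SE 0.30, edgeR adjusted p = 0.0243, 2.76-fold), 1.04 in Ti against naive (SE 0.299, edgeR adjusted p = 0.0603) and 0.43 in Ti+I-OG against Ti (95% interval -0.20 to 1.06, edgeR adjusted p = 0.707). The last of these is the test of the difference between the treatments, and it did not pass. Of the calls in Ti+I-OG it was the one that passed in all 8 alternatives that kept every library, with adjusted p-values of 0.00096 to 0.0428. Its adjusted p was 0.0601, 0.0724, 0.0721 and 0.108 without naive replicates 1 or 3 or Ti+I-OG replicates 1 or 2.

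The counts behind Tnfrsf9 were low, 30 to 80 per library. The ligand Tnfsf9 had 5 to 19 counts per library and a log2 fold change of 0.60 in Ti+I-OG against naive (SE 0.523, edgeR adjusted p = 0.464). The sum of 12 T and NK cell markers was 137 to 161 CPM in naive, 119 to 127 CPM in Ti and 119 to 128 CPM in Ti+I-OG, and none of the 12 was at 0 in all libraries. Gene by gene, 8 of the 12 had a log2 fold change above 0 in Ti against naive (median 0.11) and 7 in Ti+I-OG against naive (median 0.16), the opposite sign to the sum. None was called by edgeR in either comparison with naive, where 2 had an unadjusted p under 0.05, whereas DESeq2 called 1 in each. With the replicate block edgeR called 2 lower in Ti and 1 lower in Ti+I-OG. Mast cells, which can also carry Tnfrsf9, had 3 of 6 markers called higher in each comparison with naive, while the sum of the 6 was 99.2 to 113 CPM in naive, 84.6 to 100.15 CPM in Ti and 82.2 to 119 CPM in Ti+I-OG. Their part in the result was not tested.

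The 250 bases upstream of the first of the Tnfrsf9 starts in RefSeq (GRCm38.p6), chr4:150919905-150920154 on the plus strand, are shown beside this call. They hold 1 Sp1 box, in capitals.
Tnfrsf9: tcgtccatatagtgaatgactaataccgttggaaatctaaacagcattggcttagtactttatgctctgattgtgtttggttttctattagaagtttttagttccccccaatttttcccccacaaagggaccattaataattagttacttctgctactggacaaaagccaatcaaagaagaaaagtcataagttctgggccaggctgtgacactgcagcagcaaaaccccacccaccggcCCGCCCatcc

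Cd40 stood at 3.42, 3.87 and 2.22 CPM in naive, 5.05, 5.65 and 3.87 CPM in Ti and 7.58, 5.42 and 5.72 CPM in Ti+I-OG. Ti+I-OG lay wholly above naive, and Ti overlapped with naive only in replicate 3, which equalled the highest naive library to the digits given. Its log2 fold change was 0.98 in Ti+I-OG against naive (SE 0.268, edgeR adjusted p = 0.0469), 0.62 in Ti against naive (SE 0.267, edgeR adjusted p = 0.164) and 0.36 in Ti+I-OG against Ti (95% interval -0.21 to 0.94, edgeR adjusted p = 0.722). The adjusted p was 0.0889, 0.165, 0.145, 0.131 and 0.0731 without naive replicates 1 or 3 or Ti+I-OG replicates 1, 2 or 3. As for Tnfrsf13c, the lowest library was naive replicate 3, which was also lowest in B lineage markers, and the part of that library's cells was not tested.

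The other genes of the costimulation group did not pass edgeR's test in any comparison. Cd27 was at 6.53, 6.16 and 6.58 CPM in naive, 5.47, 4.95 and 4.55 CPM in Ti and 5.95, 3.16 and 4.65 CPM in Ti+I-OG, below naive in each library with particles, with a log2 fold change of -0.36 in Ti (SE 0.235, edgeR adjusted p = 0.339) and -0.48 in Ti+I-OG (SE 0.238, edgeR adjusted p = 0.199). Tnfsf8 (the ligand of CD30) had a log2 fold change of 0.48 and 0.41 in the comparisons with naive, and its receptor Tnfrsf8 one of 0.20 and -0.60. Tnfrsf18 (GITR, of regulatory T cells) lay at -0.02 and 0.03. Tnfrsf4 (OX40), Tnfrsf25 and Tnfsf15 had 2 to 28 counts per library and intervals that reached beyond 1 log2 unit on at least 1 side, so a change of that size was not detectable at this depth.

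In the lymphotoxin and LIGHT group, HVEM (Tnfrsf14) fell in Ti, while the ligands Ltb and Tnfsf14 and the receptor Ltbr did not pass edgeR's test without a replicate block. These proteins organise lymphoid tissue and, through HVEM, give costimulatory or inhibitory signals to lymphocytes. Of 4 tested genes, 1 fell in Ti against naive and none was called by edgeR in Ti+I-OG against naive, where 2 had an unadjusted p under 0.05 and DESeq2 and limma-trend called 0. With the replicate number as a block edgeR called 1 of the 4 in Ti+I-OG against naive, Ltb, higher (log2 fold change 0.41, adjusted p = 0.0334). In Ti against naive edgeR with the block called 2, Ltb higher (0.47, adjusted p = 0.0211) and Tnfrsf14 lower (-0.80, adjusted p = 0.0152).

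Tnfrsf14 stood at 21.9, 33.4 and 29.2 CPM in naive, 15.4, 15.1 and 17.9 CPM in Ti and 22.9, 15.0 and 20.2 CPM in Ti+I-OG. The Ti libraries were tight and below all naive libraries, and Ti+I-OG replicate 1 reached into the naive range. Its log2 fold change was -0.80 in Ti against naive (SE 0.195, edgeR adjusted p = 0.0358, 1.74-fold lower), -0.53 in Ti+I-OG against naive (SE 0.195, edgeR adjusted p = 0.0961) and 0.27 in Ti+I-OG against Ti (95% interval -0.16 to 0.70, edgeR adjusted p = 0.728). The adjusted p of the Ti call was 0.0634, 0.0951, 0.122 and 0.138 without naive replicates 2 or 3 or Ti replicates 1 or 2. Neutrophil markers, from the most abundant leukocytes of marrow, were at 35175 to 47338 CPM in naive, 29927 to 39876 CPM in Ti and 26314 to 38768 CPM in Ti+I-OG, and 2 of 9 fell in Ti. Their part in the change was not tested.

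Upstream of Tnfrsf14, 125 exon-free bases at chr4:154928203-154928327 on the minus strand of GRCm38.p6 (RefSeq) end 125 bases before the listed start. They are shown as the start of the member that fell in Ti, and none of the searched motifs is in them.
Tnfrsf14: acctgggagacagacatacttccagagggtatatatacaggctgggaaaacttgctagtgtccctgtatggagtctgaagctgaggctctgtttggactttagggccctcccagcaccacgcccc

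Ltb, the ligand with the highest level, was at 28.1, 34.5 and 23.0 CPM in naive, 34.0, 44.2 and 39.9 CPM in Ti and 36.4, 42.2 and 34.7 CPM in Ti+I-OG. All Ti+I-OG libraries were above naive by a small margin, and Ti overlapped with naive. For Ltb the log2 fold change was 0.47 in Ti (SE 0.168, edgeR adjusted p = 0.112, and 0.0211 with the replicate block). In Ti+I-OG that of Ltb was 0.40 (SE 0.169, edgeR adjusted p = 0.135, and 0.0334 with the replicate block). Its partner receptor Ltbr was at 51.1, 38.1 and 57.2 CPM in naive, 33.2, 39.1 and 45.2 CPM in Ti and 39.3, 42.9 and 39.8 CPM in Ti+I-OG, with overlap between all groups. For Ltbr it was -0.32 in Ti (SE 0.166, edgeR adjusted p = 0.240) and -0.26 in Ti+I-OG (SE 0.166, edgeR adjusted p = 0.304).

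LIGHT (Tnfsf14) was at 34.1, 25.8 and 28.3 CPM in naive, 26.0, 22.2 and 28.7 CPM in Ti and 23.2, 28.4 and 24.9 CPM in Ti+I-OG, so that all groups overlapped. For LIGHT the log2 fold change was -0.20 in Ti (SE 0.156, edgeR adjusted p = 0.430) and -0.21 in Ti+I-OG (SE 0.157, edgeR adjusted p = 0.395).

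Among the death ligands and receptors, 1 of 7 genes fell in Ti+I-OG against naive, Tnfrsf26, and none was called by edgeR in Ti against naive, where 3 had an unadjusted p under 0.05, whereas DESeq2 called 1, Tnfrsf26, and limma-trend 0. Tnfrsf26, Tnfrsf22 and Tnfrsf23 are neighbouring mouse genes on chromosome 7, related to each other in sequence. The products of Tnfrsf22 and Tnfrsf23 are known as decoy receptors that bind TRAIL (Tnfsf10) without signalling death.

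Tnfrsf26 stood at 19.5, 13.1 and 20.1 CPM in naive, 12.5, 10.1 and 10.8 CPM in Ti and 10.8, 11.5 and 7.82 CPM in Ti+I-OG. The libraries with particles lay below all naive libraries, with naive replicate 2 close to them. Its log2 fold change was -0.81 in Ti+I-OG (SE 0.211, edgeR adjusted p = 0.0413, 1.75-fold lower) and -0.66 in Ti (SE 0.209, edgeR adjusted p = 0.0778). The adjusted p of the call was 0.104, 0.131, 0.0868, 0.115 and 0.0897 without naive replicates 1 or 3 or Ti+I-OG replicates 1, 2 or 3.

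Tnfrsf22 and Tnfrsf23 had log2 fold changes of -0.96 (SE 0.308, edgeR adjusted p = 0.0690) and -0.57 (SE 0.212, edgeR adjusted p = 0.102) in Ti+I-OG, and of -0.71 and -0.37 in Ti. Both had negative values in each comparison with naive. Neither was called by edgeR with all libraries and no block, while in Ti+I-OG against naive DESeq2 and edgeR with the replicate number as a block called Tnfrsf22 and limma-trend called Tnfrsf23. Deposited counts were fractional in all 9 libraries for Tnfrsf22 and in 4 for Tnfrsf23, so reads may be divided between the copies. Summed over the 3 genes, an alternative chosen after seeing the data, the log2 fold change was -0.77 in Ti+I-OG (edgeR adjusted p = 0.0268) and -0.59 in Ti (edgeR adjusted p = 0.0529).

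Fas, the receptor of the death ligand Fasl, was at 11.6, 9.71 and 8.75 CPM in naive, 14.2, 13.1 and 13.1 CPM in Ti and 11.8, 12.6 and 8.04 CPM in Ti+I-OG. All Ti libraries lay above all libraries of both other groups. The test did not call this: the log2 fold change was 0.43 in Ti against naive (SE 0.194, edgeR adjusted p = 0.184) and -0.32 in Ti+I-OG against Ti (SE 0.195, edgeR adjusted p = 0.682). Fasl had 13 to 46 counts per library and a log2 fold change of -0.56 in Ti and -0.81 in Ti+I-OG (edgeR adjusted p = 0.385 and 0.208). TRAIL (Tnfsf10) lay at -0.02 and -0.09 and its death receptor Tnfrsf10b at -0.05 and 0.23.

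Of the receptors with no settled ligand in this family, Tnfrsf21 (DR6) was at 80.4, 65.2 and 100.02 CPM in naive, 64.5, 53.0 and 67.3 CPM in Ti and 63.7, 63.4 and 62.7 CPM in Ti+I-OG. The Ti+I-OG libraries lay close together and just under the lowest naive library. For DR6 the log2 fold change was -0.41 in Ti (SE 0.159, edgeR adjusted p = 0.130) and -0.37 in Ti+I-OG (SE 0.159, edgeR adjusted p = 0.143). Tnfrsf19 (TROY, of mesenchymal and epithelial precursors) was at 41.7, 43.1 and 15.5 CPM in naive, 47.1, 49.2 and 44.8 CPM in Ti and 45.6, 31.5 and 25.3 CPM in Ti+I-OG, with naive replicate 3 far below the rest of its group (log2 fold change 0.49 in Ti, SE 0.320, edgeR adjusted p = 0.342).

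Adding I-OG to particles left no member past the threshold. Of the 30 tested members none was called in Ti+I-OG against Ti, none had an unadjusted edgeR p under 0.05 (7.84% of all genes did), and DESeq2 and limma-trend on log2 FPKM called none either. The smallest p belonged to Tnfrsf8 (CD30, of activated lymphocytes), at 1.56, 1.73 and 1.52 CPM in Ti and 1.04, 0.618 and 1.08 CPM in Ti+I-OG. These groups did not overlap with each other, but both overlapped with naive, which was at 1.21, 0.794 and 2.18 CPM. The log2 fold change was -0.80 (SE 0.436, edgeR unadjusted p = 0.0927, adjusted p = 0.658), on 9 to 52 counts per library.

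Erythroid markers stood apart between these groups, with a sum over 5 genes of 44742 to 68896 CPM in Ti and 114276 to 124213 CPM in Ti+I-OG, while edgeR called none of the 5 (3 with an unadjusted p under 0.05, DESeq2 and limma-trend called 0). Their part in the values of the members was not tested.

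Libraries of Ti+I-OG and Ti did not overlap for 3 of the 30 members, Tnfrsf8, Fas and Tnfrsf23, all lower in Ti+I-OG, beside 14.4% of all genes in either direction (7.74% higher and 6.71% lower). The median log2 fold change of the members was -0.03. For the pair that rose against naive the intervals reached from -0.45 to 0.49 for Tnfsf12 (log2 fold change 0.02) and from -0.60 to 0.91 for Tnfrsf12a (log2 fold change 0.15). A return of either to its naive level would be a log2 fold change of the size of its rise with the opposite sign. At the estimated rises in Ti, 0.91 and 1.47, this lies outside these intervals. The rises are themselves uncertain, with intervals of 0.44 to 1.38 for Tnfsf12 and 0.68 to 2.26 for Tnfrsf12a. For Tnfsf12 a rise at the low end with a full return would lie within both of its intervals, so this comparison alone cannot decide. Against naive both genes were called higher in Ti+I-OG (0.93 and 1.63), though these calls depended on the libraries used. Changes within the intervals of Ti+I-OG against Ti could not be told from none.

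Over the 3 groups together, edgeR's F test called 3 members, Tnfrsf9 (adjusted p = 0.0399), Tnfsf12 (adjusted p = 0.0429) and Tnfrsf12a (adjusted p = 0.0431), beside 5.77% of all genes. The highest group mean was naive for 13 of the 30 members, Ti for 9 and Ti+I-OG for 8. The median coefficient of variation of the members was 18.9% for naive libraries, 14.8% for Ti libraries and 22.9% for Ti+I-OG libraries, beside 16.4%, 16.0% and 13.3% over all tested genes.

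The labels number the replicates alike in every group. In Ti+I-OG and naive the same-numbered libraries deviated from their group means together (correlations 0.11 to 0.27). In Ti+I-OG and Ti they did so too (0.07 to 0.22). With the replicate number as a block, edgeR called 7 of the 30 tested members in Ti+I-OG against naive, beside 3450 of 14211 genes. Without the block these were 5 and 1174. The members were thus called at about the rate of all genes once the block was used. Ltb (log2 fold change 0.41, edgeR adjusted p = 0.0334) rose and Tnfrsf22 (-0.99, edgeR adjusted p = 0.0358) fell with the block, in addition to the 5 called without it.

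Downstream of the receptors, 38 genes of adaptors, alternative NF-kappa B signalling, death signalling and ligand shedding were tested. In Ti against naive 1 of them fell and none rose, 2.63% beside 6.43% of all genes. An unadjusted edgeR p under 0.05 was seen for 9 of the 38, beside 26.9% of all genes, so neither count exceeded the share over all genes. Against naive, 4 fell and 1 rose in Ti+I-OG, 13.2% of the genes beside 8.26% of all. Between Ti+I-OG and Ti edgeR called none, 2 had an unadjusted p under 0.05 (7.84% of all genes did), and DESeq2 and limma-trend called 0. For Ti+I-OG against naive DESeq2 called 9 of these genes and limma-trend 10, beside 2354 and 1712 genes in all. With the replicate block edgeR called 12 (9 lower, 3 higher), beside 3450 genes in all.

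Traf3, an adaptor that restrains the alternative NF-kappa B pathway below CD40, BAFF receptor and Ltbr, was the gene that fell with particles alone. It stood at 40.0, 37.4 and 56.5 CPM in naive, 24.3, 22.9 and 31.4 CPM in Ti and 24.2, 22.2 and 30.5 CPM in Ti+I-OG. Every library with particles was below every naive library. Its log2 fold change was -0.77 in Ti (SE 0.195, edgeR adjusted p = 0.0399) and -0.80 in Ti+I-OG (SE 0.196, edgeR adjusted p = 0.0356). In Ti against naive DESeq2 called Traf3 too, and limma-trend called 0 of the 11 adaptors. Fits with a library left out are given for members only, so the calls of pathway genes are not known to be firmer. Of 6 listed genes of the alternative pathway itself, edgeR called 0 in Ti against naive, where 1 had an unadjusted p under 0.05 and DESeq2 and limma-trend called 0, and 1, Birc3, in Ti+I-OG against naive. Nfkb2 had a log2 fold change of 0.08 and 0.14 and Relb of 0.35 and 0.42 in the comparisons with naive, and neither passed.

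With particles and I-OG, against naive, Traf4 rose, and Traf6, Birc3 and Cflar fell. Traf4 was at 13.3, 21.5 and 12.4 CPM in naive, 16.8, 19.7 and 22.1 CPM in Ti and 25.3, 29.4 and 30.9 CPM in Ti+I-OG (log2 fold change 0.86, SE 0.210, edgeR adjusted p = 0.0353). Cflar, which encodes the caspase inhibitor c-FLIP, was at 69.7, 69.0 and 87.4 CPM in naive, 63.8, 54.6 and 55.4 CPM in Ti and 50.2, 43.6 and 52.1 CPM in Ti+I-OG (log2 fold change -0.63, SE 0.137, edgeR adjusted p = 0.0273). For both genes Ti+I-OG lay outside the naive and the Ti range. Ti+I-OG and Ti did not overlap for 14.4% of all tested genes, and edgeR called neither gene between them. Traf6 and Birc3 (cIAP2, a ubiquitin ligase bound to TRAF proteins) had log2 fold changes of -0.58 (SE 0.156) and -0.48 (SE 0.130), both with an edgeR adjusted p of 0.0451.

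RefSeq promoter windows were listed for 26 of the 35 members, in 30 windows, and for 4 of the 7 called members. Tnfsf12, Cd40 and Tnfrsf26 were without one. A search of the 250 bases upstream of each start, on both strands, found the NF-kappa B letters (GGG, any 2 bases and then TTTCC) in 3 of the 30 windows (Ltb, Tnfrsf25 and Tnfrsf9), beside 1.41% of 32851 windows of all genes. The AP-1 letters TGANTCA were in 6 of 30 (Fas, Tnfrsf8, Tnfrsf9, Tnfsf13, Tnfsf13b and Tnfsf14), beside 6.75% of all. GGGCGG was in 12 of 30, beside 32.7%. The motifs do not contain each other's letters. The NF-kappa B and AP-1 matches of Tnfrsf9 and Tnfsf13b lay outside the stretches printed above, which are the exon-free bases nearest to the start shown. A match says only that the letters are present.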

How the data were processed

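Per the labels' protocols, oligo(dT) beads enriched mRNA from 9 mouse tibiae samples, and the library kit, NEBNext Ultra RNA, does not mark strand. Tools named in the submitters' processing notes, with no role, are RSEM, StringTie 1.3.1, fastp, edgeR and DESeq2. Aligner, genome build and annotation were not given in the sources used here. The authors deposited an estimated count and an FPKM value per gene and library. Estimated counts were rounded to whole numbers here, and FPKM served to compare genes and for limma-trend on log2(FPKM + 0.1) and log2(FPKM + 1).

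Sample titles gave the groups and replicate numbers. No library was a copy of another of its group, since their counts differed by a chi-square of 12.9 to 132 per degree of freedom. EdgeR 4.0.16 (R 4.3.3) was used with TMM, filterByExpr (14211 genes kept, 7972 left out) and 1 fit of all 9 libraries, with two-sided tests and 6 residual degrees of freedom. Each SE is the size of the log2 fold change over the root of its F statistic. DESeq2 1.42.0 and limma 3.58.1 were alternatives. The procedure was checked on simulated data. Intervals are at 95%, and the floor of 3 counts covers counting error only.

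Values in every library are given for members called in any comparison, for the 3 with the smallest p in each and for the 4 ligands and 4 receptors with the highest mean FPKM. Other members, and pathway genes outside the calls, are given in part. The members and lists were chosen with earlier results of these data known. Overlaps between genes came from GENCODE mouse release M21. Same-numbered libraries of Ti+I-OG and naive deviated together (correlations 0.11 to 0.27, 6 of 6 libraries correlating best with their own number). By this check on the values, not by the labels, blocked values are given beside that comparison. The check does not single it out, since Ti+I-OG and Ti gave 0.07 to 0.22 and also 6 of 6. The block was a replicate term over all 9 libraries, and the main fit had none. Blocked values of the other comparisons are given beside some results and with the alternatives below.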

Additional observations from a re-analysis of the deposited data

How the results depend on the processing

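All 9 calls kept their direction in every alternative run. Members called in Ti against naive were 4, and 0 with limma-trend at either pseudocount or with the 2 compared groups only, 2 with an offset on transcript length and 9 with the replicate block. In Ti+I-OG against naive they were 5, and 3 with the 2 compared groups only and 1 (Tnfrsf9) with the length offset. The F test called 3, and 5 with no filter on low counts, 9 with the replicate block and 1 (Tnfrsf14) with the length offset. Genes called in Ti against naive were 914, and 1817 with DESeq2, 479 and 518 with limma-trend at pseudocounts of 0.1 and 1, 357 with the 2 groups only and 2968 with the replicate block. For Ti+I-OG against naive they were 1174, and 2354 with DESeq2, 770 with the 2 groups only, 3450 with the replicate block and 353 with the length offset. Between Ti+I-OG and Ti they were 6, and 14 with DESeq2.

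With a library left out, Ti against naive gave 0 to 6 members and 100 to 1999 genes, Ti+I-OG against naive 0 to 6 members and 59 to 2119 genes, and Ti+I-OG against Ti 0 members and 0 to 5 genes. Members called were 0 without naive replicate 3, Ti replicate 1 or Ti replicate 2 and 1 without naive replicate 1 in Ti against naive. They were 0 without naive replicates 1 or 3 or Ti+I-OG replicates 1 or 2 and 3 without Ti+I-OG replicate 3 in Ti+I-OG against naive. Without naive replicate 2 more were called than with all libraries: 6 members and 1428 genes in Ti against naive, 6 and 2119 in Ti+I-OG against naive. The cause of these shifts was not tested.

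The replicate block used numbers that the labels do not tie to an animal or batch. The correlation of same-numbered deviations was -0.02 to 0.33 in Ti and naive, where 4 of 6 libraries correlated best with their own number, and 0.07 to 0.22 in Ti+I-OG and Ti, where 6 of 6 did. Ltb, Tnfrsf13c, Tnfrsf21, Tnfrsf26 and Tnfrsf9 were called in Ti against naive with the block in addition to the 4 called without it, and no member was called in Ti+I-OG against Ti.

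Sign changes fell on uncalled log2 fold changes near 0. In Ti+I-OG against Ti, limma-trend at pseudocounts of 0.1 and 1 gave -0.056 and -0.054 for Ltbr, -0.11 and -0.11 for Tnfrsf13b, -0.074 and -0.071 for Tnfrsf21, -0.090 and -0.081 for Tnfsf12, and -0.12 and -0.11 for Tnfsf13, all positive with edgeR. The length offset gave -0.025 for Tnfrsf12a, -0.0033 for Tnfrsf13b, -0.084 for Tnfsf12 and -0.11 for Tnfsf13, and the replicate block -0.0033 for Tnfrsf13b and 0.00075 for Tnfsf14. Summed counts gave -0.052 for Tnfsf12 with Tnfsfm13 and -0.024 with Tnfsf13 too. Fas in Ti+I-OG against naive was -0.12 and -0.11 with limma-trend and -0.12 with the length offset. Over fits with a library left out, Ti+I-OG against Ti ran from -0.16 to 0.031 for Ltb, -0.053 to 0.17 for Ltbr, -0.094 to 0.63 for Tnfrsf12a, -0.11 to 0.086 for Tnfrsf13b, -0.058 to 0.11 for Tnfrsf21, -0.13 to 0.22 for Tnfsf12, -0.17 to 0.17 for Tnfsf13 and -0.10 to 0.084 for Tnfsf14. Fas in Ti+I-OG against naive ran from -0.027 to 0.27, and Tnfrsf8 in Ti against naive from -0.079 to 0.64. The cause was not tested.

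Depth limits the members with few counts: 5 ligands were not tested, and Tnfrsf4, Tnfrsf25, Tnfsf15 and Tnfsf9 had at most 28 counts in a library. Each call was lost on leaving out at least 4 of the 6 libraries in turn.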
